A study of Mus musculus with 26 samples.

Results

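The red cell membrane and blood group genes described here are Rhd, Rhag, Icam4, Ermap, Slc14a1, Slc4a1, Epb42, Ank1 and Add2, 9 of the 19938 genes measured. They were chosen by name, with earlier results of these data known. Counts of members called are therefore set beside the shares of all genes as a description. Each member was read from the probe set with the highest mean over the 26 arrays of the series, and every member had 1 probe set. The arrays (Affymetrix Mouse Gene 1.1 ST) measured RNA of progenitor cells sorted from bone marrow of mice aged 8 to 15 weeks, all of the genotype Gata1-EGFP Tg/+, which carry a green fluorescent reporter of the transcription factor gene Gata1. Values are log2 signals. Because no control without the reporter transgene is among the groups, all differences are between sorted cells of reporter mice.

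There were 3 arrays of PreMegE (pre-megakaryocyte-erythroid progenitors, gated on CD150 without CD105, with no EGFP condition in the label). PreGM (pre-granulocyte-macrophage progenitors, negative for the Fc gamma receptor, CD150 and CD105) were split into EGFP-positive cells, PreGM GFP+ with 3 arrays, and EGFP-negative cells, PreGM GFP- with 3 arrays. GMP (granulocyte-macrophage progenitors, positive for the Fc gamma receptor) were split likewise into GMP GFP+ with 3 arrays and GMP GFP- with 4 arrays. These 5 groups were lineage-negative, Kit-positive, Sca1-negative and CD41-negative. LMPP (lymphoid-primed multipotent progenitors, Flt3 high, CD150-negative and EGFP-negative) had 4 arrays, and HSC GFP- (stem cells, CD150-positive, Flt3-negative and EGFP-negative) had 3 arrays; both were Sca1-positive. CLP (common lymphoid progenitors, Flt3-positive and positive for the interleukin-7 receptor, with no EGFP condition in the label) had 3 arrays. Whether replicate arrays came from different animals is not given in the labels, so each p-value here refers to the spread among these arrays, part of which may be technical.

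The red cell membrane is a lipid bilayer fixed to a spectrin and actin skeleton. Band 3, the anion exchanger, is tied to spectrin through ankyrin and protein 4.2, and it sits near the Rh complex of Rh protein, Rh-associated glycoprotein and Icam4. Adducin caps actin where spectrin and actin meet. Many human blood group antigens are carried by these proteins, and in erythroid development many of their genes are targets of Gata1, which binds DNA at GATA motifs. The sorted gates precede recognisable erythroblasts.

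Promoter sequence was available for 6 of the 9 members as 250 bases before the start given in the RefSeq promoter table on GRCm38.p6. For Rhd, Icam4, Epb42 and Add2 that start is the first base of the gene span printed below; for Rhag it lies 50 bases, and for Ermap 18 bases, inside that span, so the ends of these 2 windows overlap the gene. The motif searched was GATA with A or T before it and A or G after it, on both strands; for example AGATAA is a match, and so is its other strand, TTATCT. All 6 windows held a match, and 26.5% of the 32851 promoters in the table did. The 4 windows of Rhd, Rhag, Icam4 and Ermap, the members with sequence whose signal rose in reporter-positive PreGM cells (below), are shown 5′ to 3′ on the gene's strand, with the match in capitals. They lie at chr4:134864286-134864535 on the plus strand (Rhd), chr17:40810899-40811148 on the plus strand (Rhag), chr9:21029182-21029431 on the plus strand (Icam4) and chr4:119189996-119190245 on the minus strand (Ermap).
Rhd: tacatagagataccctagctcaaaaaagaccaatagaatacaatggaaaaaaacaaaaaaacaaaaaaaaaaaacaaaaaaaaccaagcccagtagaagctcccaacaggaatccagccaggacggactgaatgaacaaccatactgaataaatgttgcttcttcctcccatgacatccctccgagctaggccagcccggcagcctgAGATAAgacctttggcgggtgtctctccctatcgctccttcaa
Rhag: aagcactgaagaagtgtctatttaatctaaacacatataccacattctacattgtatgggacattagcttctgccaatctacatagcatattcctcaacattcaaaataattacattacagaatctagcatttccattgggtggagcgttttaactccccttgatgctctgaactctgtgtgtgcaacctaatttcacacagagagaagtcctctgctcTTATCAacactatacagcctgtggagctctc
Icam4: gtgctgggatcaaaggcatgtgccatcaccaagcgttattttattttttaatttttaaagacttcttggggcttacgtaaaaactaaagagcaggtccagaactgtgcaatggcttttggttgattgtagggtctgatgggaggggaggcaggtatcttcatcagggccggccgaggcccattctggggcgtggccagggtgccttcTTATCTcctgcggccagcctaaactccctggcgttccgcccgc
Ermap: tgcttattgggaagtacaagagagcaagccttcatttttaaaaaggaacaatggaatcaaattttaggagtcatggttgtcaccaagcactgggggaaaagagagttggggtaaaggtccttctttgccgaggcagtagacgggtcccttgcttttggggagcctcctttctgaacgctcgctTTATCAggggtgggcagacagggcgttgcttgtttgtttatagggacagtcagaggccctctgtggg

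Counted from the start in the promoter table, the match began 43 bases before that of Rhd, 31 before that of Rhag, 43 before that of Icam4 and 67 before that of Ermap. The Rhag match therefore lies within the first 50 bases of the gene span, and the Ermap match lies before the span. In the Epb42 and Add2 windows it began 226 and 234 bases before the start. A window of 100 bases, chosen after these positions were seen, held a match in 4 members and in 10.4% of all promoters in the table. Epb42 and Add2 were not called in the PreGM gate but were in the GMP gate, where Ermap was not (below). A relation between motif position and signal was not tested. A CACCC-type motif, CCNCNCCC with GGGNGNGG as its other strand, was present in 2 of the 6 windows, those of Icam4 and Add2, and in 45.9% of all promoters. No CACCC-type match overlapped a GATA match in these windows. A match says only that the letters are there, and binding was not measured.

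**Figure D1:**
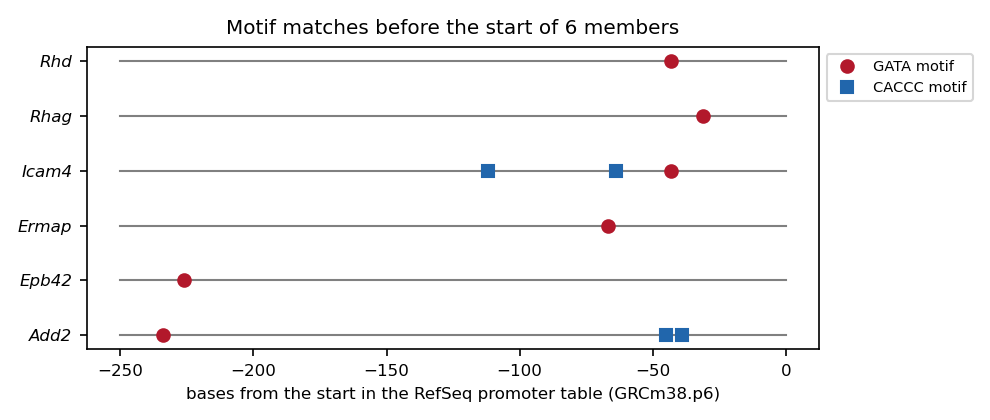
Positions of GATA motif matches (circles) and CACCC-type motif matches (squares) in the 250 bases before the start of 6 members in the promoter table; the horizontal axis is the distance from that start in bases, which for Rhag lies 50 and for Ermap 18 bases inside the gene span. The GATA matches of Rhd, Rhag, Icam4 and Ermap lie within 67 bases of the start, those of Epb42 and Add2 at 226 and 234 bases.

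Over the 8 groups, 7 of the 9 members differed by limma's moderated F test (Benjamini-Hochberg adjusted p under 0.05 over all genes), against 15.2% of all 19938 genes. Ermap (adjusted p = 2.07e-07), Slc14a1 (adjusted p = 6.79e-07) and Icam4 (adjusted p = 5.2e-06) had the smallest values, and Slc4a1 (adjusted p = 0.336) and Epb42 (adjusted p = 0.143) did not pass. Add2 passed at an adjusted p of 0.0348, and missed, at adjusted p = 0.0502 to 0.0801, without array 1, 2 or 3 of GMP GFP-, array 2 of GMP GFP+, array 1 or 3 of PreGM GFP+, array 2 or 3 of PreMegE, or array 1 or 3 of LMPP. The group means of Rhd, Rhag, Icam4, Ermap and Slc14a1 spanned 1.54 to 3.89 log2 units between their lowest and highest group. Those of Slc4a1, Epb42, Ank1 and Add2 spanned 0.38 to 0.50. The blood group and Rh members thus varied over a wider range of signal than band 3, its anchors and adducin. The median of all values on the arrays was 6.61, and signal below it was not shown to exceed background; Rhag, Epb42 and Add2 lay below it in all 8 groups, so their differences are of signal and no fold is given. Rhd was above it in PreGM GFP+, GMP GFP+ and PreMegE alone.

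**Figure D2:**
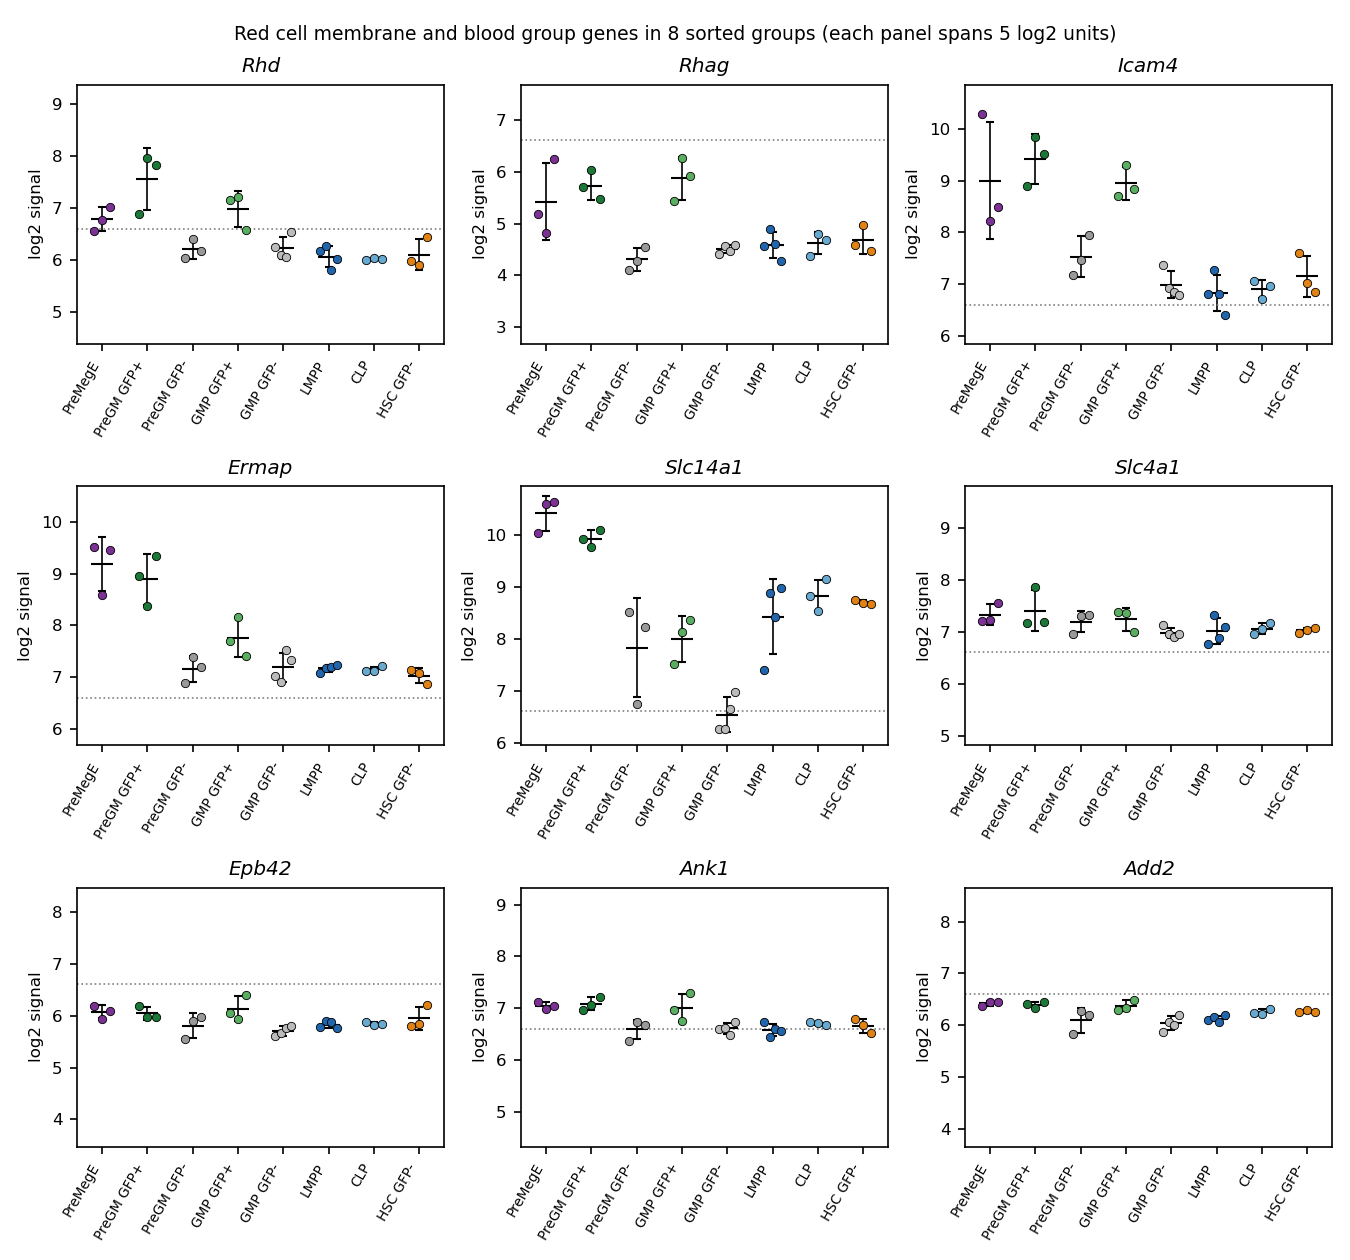
Log2 signal of the 9 members in each array (points), with the group mean and SD (bars), for the 8 sorted groups; each panel spans 5 log2 units around its own midpoint, and the dotted line is the median of all values, 6.61. Group means of Rhd, Rhag, Icam4, Ermap and Slc14a1 span 1.54 to 3.89 log2 units. Those of Slc4a1, Epb42, Ank1 and Add2 span 0.38 to 0.50.

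The reporter comparison in the PreGM gate asks how cells sorted through the same antigen gate differ by EGFP. Of 8 measured sort antigen genes, taken over all gates, 2 were higher in PreGM GFP+ by limma. These were Itga2b, the gene for CD41, by 1.13 and Slamf1, the gene for CD150, by 0.98. PreGM cells were sorted as negative for both antigens. Another 2 were lower, with differences of -3.68 for Flt3 and -1.60 for Il7r. Neither is among the antigens given above for the PreGM or GMP gate. In GMP GFP+ 1 of the 8 was higher, Itga2b by 1.44, and 0 were lower. Here 6 of 9 members rose and 0 fell in PreGM GFP+, where 0.908% of all genes were called higher and 1.14% lower (limma, adjusted p under 0.05). The risers were Rhd, Rhag, Icam4, Ermap, Slc14a1 and Ank1. The median difference of the 9 members was 1.36, beside 0.04 for all genes. In 7 members every PreGM GFP+ array lay above every PreGM GFP- array, which was so for 1289 of all genes. Gata1 itself was higher by 1.75 (SE 0.19, adjusted p = 2.36e-06) and the erythroid factor gene Klf1 by 1.25 (SE 0.16, adjusted p = 2.51e-05). In sorted bulk RNA, fewer cells of a type and less RNA per cell cannot be told apart.

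In the Rh complex, Rhd (probe set 10509002, chr4:134864536-134896172), the mouse counterpart of the genes for the human Rh D and CE proteins, had 6.88, 7.96 and 7.84 in PreGM GFP+, against 6.04, 6.40 and 6.17 in PreGM GFP-. Array 1 of PreGM GFP+ was the lowest of its group and still above every PreGM GFP- array. The difference was 1.36 (SE 0.23, adjusted p = 0.000865), and the PreGM GFP- mean lay below the median signal. Rhag (probe set 10445192, chr17:40811099-40844094), the ammonium channel that Rh proteins need to reach the membrane, had 5.71, 6.03 and 5.46 in PreGM GFP+, against 4.10, 4.28 and 4.54 in PreGM GFP-. All values were dim, and the groups did not overlap. The difference in signal was 1.42 (SE 0.26, adjusted p = 0.0025). Icam4 (probe set 10583529, chr9:21029432-21030596), the adhesion protein that carries the human Landsteiner-Wiener antigens, had 8.90, 9.84 and 9.52 in PreGM GFP+, against 7.17, 7.47 and 7.95 in PreGM GFP-. The groups were separate by almost 1 log2 unit. It rose 3.69-fold, a log2 difference of 1.88 (SE 0.37, adjusted p = 0.0050). With precision weights on the arrays, the calls of Rhag (1.37, adjusted p = 0.107) and Icam4 (1.75, adjusted p = 0.0555) were lost. That of Rhd was lost with the groups compared fitted alone (1.36, adjusted p = 0.0645).

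Of the other surface antigens, Ermap (probe set 10515848, chr4:119175457-119190013), an immunoglobulin-family protein that carries the human Scianna antigens, had 8.95, 8.38 and 9.34 in PreGM GFP+, against 6.89, 7.39 and 7.19 in PreGM GFP-. It rose 3.32-fold, by 1.73 on the log2 scale (SE 0.24, adjusted p = 8.76e-05), and was called under all 14 alternative settings. Slc14a1 (probe set 10459866, chr18:78100091-78142119), the urea transporter of red cells and carrier of the human Kidd antigens, had 9.92, 9.77 and 10.11 in PreGM GFP+, against 8.52, 6.75 and 8.24 in PreGM GFP-. Array 2 of PreGM GFP- was well below the other two, which lay close together. Slc14a1 rose 4.29-fold, by 2.10 on the log2 scale (SE 0.38, adjusted p = 0.0019). Without array 2 of PreGM GFP- the log2 difference was 1.56 (adjusted p = 0.0151). The Slc14a1 call was lost with the groups compared fitted alone (2.10, adjusted p = 0.0520).

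Differences were smaller for band 3 and its anchors. Slc4a1 (probe set 10391649, chr11:102348820-102365281), which encodes band 3, had 7.17, 7.86 and 7.19 in PreGM GFP+, against 6.97, 7.30 and 7.32 in PreGM GFP-. The groups overlapped, and its difference of 0.21 (SE 0.17) had an adjusted p of 0.775. Epb42 (probe set 10486664, chr2:121017891-121036877), which encodes protein 4.2, differed by 0.24 (SE 0.13, adjusted p = 0.592). Ank1 (probe set 10570894, chr8:22974836-23150501), the ankyrin that joins band 3 to spectrin, had 6.97, 7.06 and 7.22 in PreGM GFP+, against 6.37, 6.72 and 6.67 in PreGM GFP-. The groups did not overlap, but the PreGM GFP- mean lay just below the median signal. The Ank1 difference was 0.50 (SE 0.13, adjusted p = 0.0380), and it was called in 4 of 14 alternative settings; leaving out array 1 of PreGM GFP- gave 0.39 (adjusted p = 0.219), array 3 of PreGM GFP- 0.54 (adjusted p = 0.0605), and arrays 1, 2 and 3 of PreGM GFP+ 0.55 (adjusted p = 0.0551), 0.51 (adjusted p = 0.0927) and 0.43 (adjusted p = 0.201). Add2 (probe set 10539669, chr6:86028681-86124409), the beta adducin of the spectrin-actin junction, differed by 0.29 (SE 0.11, adjusted p = 0.241), with no overlap between 6.41, 6.33 and 6.44 in PreGM GFP+ and 5.82, 6.28 and 6.20 in PreGM GFP-.

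In the GMP gate 7 of 9 members rose and 0 fell in GMP GFP+, where 3.22% of all genes were called higher and 4.05% lower. Rhd, Rhag, Icam4, Slc14a1, Epb42, Ank1 and Add2 passed, while Ermap and Slc4a1 did not. The median difference of the members was 0.56, beside 0.08 for all genes. In 7 members every GMP GFP+ array lay above every GMP GFP- array, as in 2816 of all genes. Gata1 was higher by 1.67 (SE 0.17, adjusted p = 8.58e-07) and Klf1 by 0.87 (SE 0.15, adjusted p = 5.54e-04). Of the called genes 44.3% were higher, and 29.1% were when arrays were centred on their medians. With that centring, 3 members were called, Rhag, Icam4 and Slc14a1.

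Icam4 had 8.69, 9.30 and 8.84 in GMP GFP+, against 7.37, 6.92, 6.85 and 6.80 in GMP GFP-. It rose 3.89-fold, by 1.96 on the log2 scale (SE 0.35, adjusted p = 0.000901), and was called under all 15 alternatives. Rhag had 5.44, 6.26 and 5.91 in GMP GFP+, against 4.41, 4.57, 4.46 and 4.58 in GMP GFP-. As in PreGM, both groups were dim and clearly apart, with a difference in signal of 1.37 (SE 0.25, adjusted p = 0.0010) that was called in all 14 alternatives. Slc14a1 had 7.51, 8.14 and 8.36 in GMP GFP+, against 6.27, 6.27, 6.64 and 6.98 in GMP GFP-. Every GMP GFP+ array was higher, and the GMP GFP- mean lay just below the median signal. The Slc14a1 difference was 1.46 (SE 0.36, adjusted p = 0.0126), and without array 3 of GMP GFP+ it was 1.28 (adjusted p = 0.0814).

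Rhd had 7.15, 7.22 and 6.58 in GMP GFP+, against 6.26, 6.09, 6.06 and 6.53 in GMP GFP-. Array 3 of GMP GFP+ and array 4 of GMP GFP- nearly met. The difference was 0.75 (SE 0.21, adjusted p = 0.0339) and was called in 8 of 15 alternatives; without array 1, 2 or 3 of GMP GFP- or array 1 or 2 of GMP GFP+ it was 0.63 to 0.75 (adjusted p = 0.0631 to 0.126). The shifts of the skeleton members were smaller: 0.42 for Epb42 (SE 0.13, adjusted p = 0.0415), 0.39 for Ank1 (SE 0.12, adjusted p = 0.0476) and 0.33 for Add2 (SE 0.10, adjusted p = 0.0428). They were called in 6 of 14, 6 of 15 and 5 of 14 alternatives, and without array 3 of GMP GFP+ were 0.29 (adjusted p = 0.271), 0.24 (adjusted p = 0.313) and 0.28 (adjusted p = 0.201). The count of 7 fell to 3 without array 1, 2 or 3 of GMP GFP- or without array 1 or 3 of GMP GFP+, and to 5 without array 2 of GMP GFP+; Icam4 and Rhag were called each time. Ermap had 7.70, 8.16 and 7.41 in GMP GFP+, against 7.02, 6.91, 7.52 and 7.32 in GMP GFP-. The lowest GMP GFP+ array overlapped GMP GFP-, and the difference was 0.56 (SE 0.22, adjusted p = 0.136). With precision weights Ermap was called (0.67, adjusted p = 0.0312). Slc4a1 differed by 0.26 (SE 0.16, adjusted p = 0.339).

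**Figure D3:**
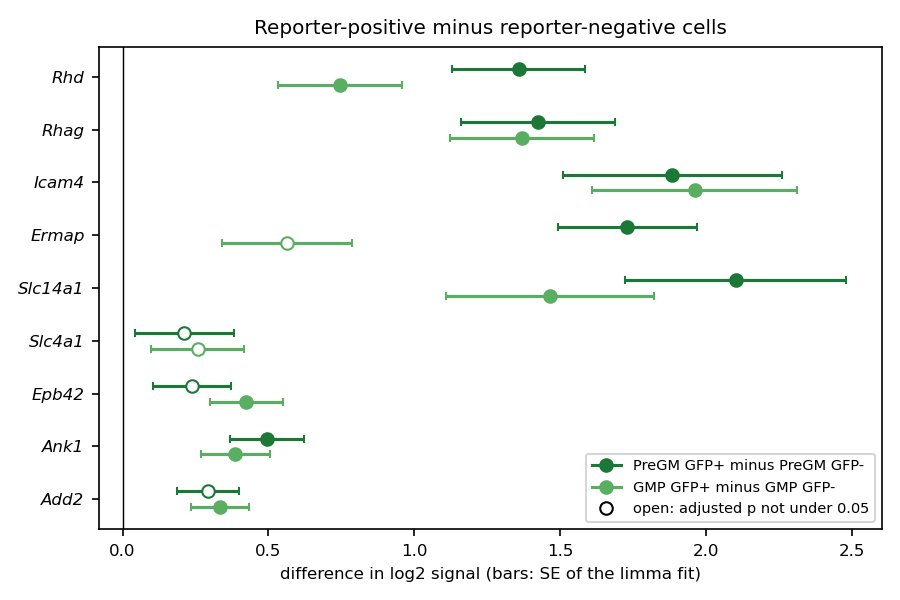
Difference in log2 signal between reporter-positive and reporter-negative cells for the 9 members in the PreGM gate (dark) and the GMP gate (light), with the SE of the limma fit as bars; open points did not pass an adjusted p of 0.05. All 18 points lie above 0, and Ermap shows the widest gap between gates, 1.73 in PreGM and 0.56 in GMP.

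Whether the reporter difference itself differed between gates was tested as an interaction. None of the 9 members passed (limma), higher or lower in GMP, where 0.517% and 0.186% of all genes did. At an unadjusted p under 0.05, 0 members were higher and 1 was lower, Ermap, where 4.04% and 3.51% of all genes were. The Ermap difference was smaller in GMP than in PreGM by 1.17 on the log2 scale, written as -1.17 (SE 0.33, adjusted p = 0.144). Without array 2 of PreGM GFP+ it was -1.42 (adjusted p = 0.0402). Rhd gave -0.61 (SE 0.31, adjusted p = 0.696) and Slc14a1 -0.64 (SE 0.52, adjusted p = 0.858). Rhag at -0.05 (SE 0.36) and Icam4 at 0.08 (SE 0.51) had nearly equal reporter differences in the 2 gates.

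Reporter-positive cells of the 2 gates were also compared directly. In GMP GFP+, 2 of 9 members were lower than in PreGM GFP+ and 0 higher, where 0.226% of all genes were called lower and 0.792% higher. They were Slc14a1 and Ermap, 2 surface antigen genes outside the Rh complex. Slc14a1 was 3.81-fold lower in GMP GFP+, a log2 difference of -1.93 (SE 0.38, adjusted p = 0.0078), with all GMP GFP+ arrays at or below 8.36 and all PreGM GFP+ arrays at or above 9.77. Without array 1 of GMP GFP+ the difference was -1.68 (adjusted p = 0.0715). Ermap was 2.19-fold lower in GMP GFP+, a log2 difference of -1.13 (SE 0.24, adjusted p = 0.0148), and its groups did not overlap either. Its call was lost without array 1 of GMP GFP+ (-1.10, adjusted p = 0.0707), array 3 of GMP GFP+ (-0.96, adjusted p = 0.117), array 1 of PreGM GFP+ (-1.10, adjusted p = 0.0679) or array 3 of PreGM GFP+ (-0.90, adjusted p = 0.153). Rhag at 0.14 (SE 0.26, adjusted p = 0.978) and Icam4 at -0.47 (SE 0.37, adjusted p = 0.891) were not called between these groups. Rhd differed by -0.58 (SE 0.23, adjusted p = 0.472), and without array 1 of PreGM GFP+, its dimmest array there, by -0.92 (adjusted p = 0.0264).

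PreMegE, the gate defined by CD150 and expected from its name to hold cells of the megakaryocyte and erythroid path, was set against PreGM GFP+. None of the 9 members was called higher or lower (limma), with backgrounds of 0.015% and 0.0502%. At an unadjusted p under 0.05, 0 were higher and 1 was lower, where 1.64% and 2.19% of all genes were. That member was Rhd, which had 6.57, 6.78 and 7.02 in PreMegE and 6.88, 7.96 and 7.84 in PreGM GFP+. The groups overlapped through array 1 of PreGM GFP+. The Rhd difference was -0.77 (SE 0.23, adjusted p = 0.662), and it was -1.11 (adjusted p = 0.0354) without that array. Of all genes, 3 were called higher and 10 lower here (23.1% of calls higher), and 1 and 7 with arrays centred (12.5% higher). Slc14a1 had 10.04, 10.61 and 10.64 in PreMegE, a difference of 0.49 (SE 0.38) from PreGM GFP+, and Ermap had 9.52, 8.59 and 9.46, a difference of 0.30 (SE 0.24). Icam4 was uneven within PreMegE, at 10.29, 8.21 and 8.49, and Rhag likewise, at 5.19, 4.82 and 6.25. The high array was array 1 for Icam4 and array 3 for Rhag.

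Against the reporter-negative PreGM cells, 5 of 9 members were higher in PreMegE and 0 lower, where 1.05% of all genes were called higher and 2.06% lower. The median over the members was 0.58, beside 0.06 over all genes. PreGM GFP- is also the group against which PreGM GFP+ was compared, so these differences share arrays with the PreGM reporter comparison. Slc14a1 was 6.04-fold higher in PreMegE (log2 difference 2.59, SE 0.38, adjusted p = 0.000147) and Ermap 4.07-fold higher (2.03, SE 0.24, adjusted p = 7.38e-06); both were called in all 14 alternatives. Icam4 differed by 1.47 (SE 0.37, adjusted p = 0.0304), Rhag by 1.11 (SE 0.26, adjusted p = 0.0179) and Ank1 by 0.45 (SE 0.13, adjusted p = 0.0491). These 3 calls depended on single arrays. Icam4 was at 0.82 (adjusted p = 0.191) without array 1 of PreMegE, at 1.29 (adjusted p = 0.170) without array 1 of PreGM GFP- and at 1.44 (adjusted p = 0.0639) without array 2 of PreGM GFP-. Rhag was at 0.70 (adjusted p = 0.117) without array 3 of PreMegE and at 1.01 (adjusted p = 0.106) without array 1 of PreGM GFP-. Ank1 was called in 4 of 14 alternatives, and was at 0.35 to 0.50 (adjusted p = 0.0698 to 0.270) without array 1 or 3 of PreGM GFP- or any array of PreMegE. The count was 2 without array 1 of PreGM GFP- and 3 without array 1 or array 3 of PreMegE.

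Against stem cells, HSC GFP-, 3 of 9 members were higher in PreMegE and 0 lower, where 0.988% of all genes were called higher and 2.19% lower. Ermap had 9.52, 8.59 and 9.46 in PreMegE, against 7.15, 7.08 and 6.86 in HSC GFP-. It was 4.46-fold higher (log2 difference 2.16, SE 0.24, adjusted p = 3.17e-06). Icam4 had 10.29, 8.21 and 8.49 in PreMegE, against 7.60, 7.02 and 6.85 in HSC GFP-, a difference of 1.85 (SE 0.37, adjusted p = 0.0046). Without array 1 of PreMegE, where it was brightest, that difference was 1.20 (adjusted p = 0.0258), and with the 2 groups fitted alone the call was lost (1.85, adjusted p = 0.241). Slc14a1 was 3.30-fold higher in PreMegE (1.72, SE 0.38, adjusted p = 0.0095), although its arrays in HSC GFP- were far from the bottom of its range, at 8.75, 8.70 and 8.68. Rhd at 0.68 (SE 0.23, adjusted p = 0.126) and Rhag at 0.75 (SE 0.26, adjusted p = 0.162) did not pass, and Rhag did without array 2 of PreMegE (1.05, adjusted p = 0.0318).

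Among groups at low Gata1 signal, none of the 9 members was called between PreGM GFP- and LMPP (backgrounds 0.396% higher and 0.476% lower), LMPP and HSC GFP- (1.03% and 1.28%) or CLP and LMPP (0.828% and 0.747%). At an unadjusted p under 0.05 limma gave 0 in each of these 3 comparisons, and each of the other settings run also called 0. The member with the largest of these differences was Icam4, higher in PreGM GFP- than in LMPP by 0.70 (SE 0.35, adjusted p = 0.588). Ermap was narrow across these groups. It had 7.12, 7.12 and 7.21 in CLP and 7.07, 7.18, 7.19 and 7.23 in LMPP.

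Slc14a1 was ordered differently from the rest. Its means were 10.43 ± 0.34 in PreMegE and 9.94 ± 0.17 in PreGM GFP+, then 8.84 ± 0.31 in CLP, 8.71 ± 0.04 in HSC GFP-, 8.43 ± 0.72 in LMPP, 8.01 ± 0.44 in GMP GFP+, 7.84 ± 0.95 in PreGM GFP- and 6.54 ± 0.34 in GMP GFP- (SD, n = 3 each, and 4 for LMPP and GMP GFP-). PreGM GFP+ did not overlap CLP, while every later neighbour in that order overlapped the next. CLP arrays were at 8.82, 8.54 and 9.15, and these and all HSC GFP- arrays lay above the highest GMP GFP+ array at 8.36. This order was read from the arrays and not tested. For LMPP, array 1 at 7.41 was low beside 8.89, 8.43 and 8.98.

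In group means, the other members kept the groups with high Gata1 signal, PreMegE, PreGM GFP+ and GMP GFP+, on top. Slc4a1 (adjusted p = 0.336) and Epb42 (adjusted p = 0.143) did not pass the moderated F test over the 8 groups. Rhd ran from 7.56 ± 0.59 in PreGM GFP+ through 6.98 ± 0.35 in GMP GFP+ to 6.79 ± 0.23 in PreMegE (SD, n = 3 each), neighbours that overlapped, and the remaining groups lay at 6.02 to 6.24 with no overlap between PreMegE and GMP GFP-. Icam4 was 9.42 ± 0.48 in PreGM GFP+, 8.21 to 10.29 over the arrays of PreMegE and 8.94 ± 0.32 in GMP GFP+ (SD, n = 3 each), overlapping each other. All of their arrays lay above every array of PreGM GFP- (7.53 ± 0.39) and of the other groups (means 6.83 to 7.15). Ermap was 9.19 ± 0.52 in PreMegE and 8.89 ± 0.49 in PreGM GFP+, and after a gap 7.76 ± 0.38 in GMP GFP+ (SD, n = 3 each), which overlapped GMP GFP-. Rhag was 5.87 ± 0.41 in GMP GFP+, 5.73 ± 0.28 in PreGM GFP+ and 5.42 ± 0.74 in PreMegE (SD, n = 3 each), with every pair of neighbours overlapping, and 4.31 to 4.68 elsewhere. Slc4a1 ranged over 6.99 to 7.41, Epb42 over 5.71 to 6.13, Ank1 over 6.58 to 7.09 and Add2 over 6.04 to 6.42 in group means. Arrays of Slc4a1 overlapped between GMP GFP+ and PreGM GFP-. Those of Epb42 overlapped between PreGM GFP+ and HSC GFP-, and those of Add2 between GMP GFP+ and HSC GFP-.

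For Icam4, Ermap and Slc14a1, whose group means spanned at least 1 log2 unit, the genes with the most similar profile over the 8 group means were looked up among 2464 genes with such a span, by Pearson's r, as a description. Icam4 was most like Gna14 (r = 0.984), a G protein subunit, Kel (r = 0.983), the Kell antigen protein, and Cnr2 (r = 0.981), a cannabinoid receptor. Ermap was most like Ugcg (r = 0.991), the glucosylceramide synthase, Ces2g (r = 0.991), a carboxylesterase, and Mfsd2b (r = 0.989), a lipid transporter. Slc14a1 was most like Ldb1 (r = 0.975), a LIM domain binding protein, Ddah2 (r = 0.970), a dimethylarginine hydrolase family member, and Sh3glb1 (r = 0.952), an endophilin. Gata1 ranked 5 of 2464 for Icam4 (r = 0.980), 22 for Ermap (r = 0.928) and 155 for Slc14a1 (r = 0.636). All points come from the same 26 arrays. Between these members, r over the 8 means was 0.881 for Icam4 with Ermap, 0.763 for Ermap with Slc14a1 and 0.588 for Icam4 with Slc14a1. Rhd and Rhag had such spans too, but lay below the median signal in 5 and in all 8 groups, and no correlation is given for them. Some genes correlated above were also dim in part of the groups. Kel means were 5.26 to 5.39 in PreGM GFP-, GMP GFP-, LMPP, CLP and HSC GFP-. Gata1 lay below the median signal in GMP GFP-, LMPP, CLP and HSC GFP-, and the highest group mean of Cnr2 was 7.01.

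Other genes of the same membrane were taken from lists of the remaining skeleton and blood group genes. Of 30 measured blood group and related surface genes, 5 rose and 0 fell in PreGM GFP+ (median 0.03): Cd55, the complement regulator of the Cromer group, by 3.84, Kel by 2.88, Aqp1, the Colton water channel, by 2.37, Cd59a, a complement inhibitor, by 2.04, and Art4, the Dombrock protein, by 0.99 on the log2 scale. The PreGM GFP- means of Cd55, Kel, Cd59a and Art4 lay below the median signal, as did the GMP GFP- means of Cd55 and Kel, so these are differences of signal. In GMP GFP+, 3 rose and 1 fell (median 0.10), namely Cd55 by 3.43, Kel by 2.15, Aqp1 by 0.67 and Cd44, the hyaluronan receptor of the Indian group, with a difference of -1.10. Kel means were 8.22 in PreGM GFP+, 7.71 in PreMegE and 7.55 in GMP GFP+, and between 5.26 and 5.39 in the other 5 groups. The Aqp1 rise was smaller in GMP than in PreGM by the interaction test (-1.70, SE 0.23, adjusted p = 1.41e-04), the same sign as that of Ermap, which did not pass. Aqp1 was also lower in GMP GFP+ than in PreGM GFP+ (-1.79, SE 0.17, adjusted p = 4.74e-07), as Ermap and Slc14a1 were.

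Of 8 measured genes of the skeleton and its other anchors, 1 rose in PreGM GFP+ and 0 fell (median 0.15): Add1, the alpha adducin partner of Add2, by 1.01 (SE 0.24, adjusted p = 0.0238). In GMP GFP+, 1 rose and 3 fell (median 0.09). Add3, the gamma adducin, rose by 0.73 (SE 0.20, adjusted p = 0.0293), and Stom, the stomatin of the red cell membrane, Mpp1, the p55 linker, and Tpm3, a tropomyosin, had differences of -1.45 (SE 0.28, adjusted p = 0.0019), -1.29 (SE 0.27, adjusted p = 0.0045) and -0.43 (SE 0.11, adjusted p = 0.0153). Stom was the 1 gene of the 8 called for a difference between gates (-2.32, SE 0.41, adjusted p = 0.0035). The spectrin beta gene Sptb, named after its values were seen, was at 6.45 to 6.82 in group means and was not called in either reporter comparison. In PreMegE against HSC GFP-, Stom was higher by 3.20 (SE 0.30, adjusted p = 2.9e-07), and it was the 1 skeleton gene called.

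**Figure D4:**
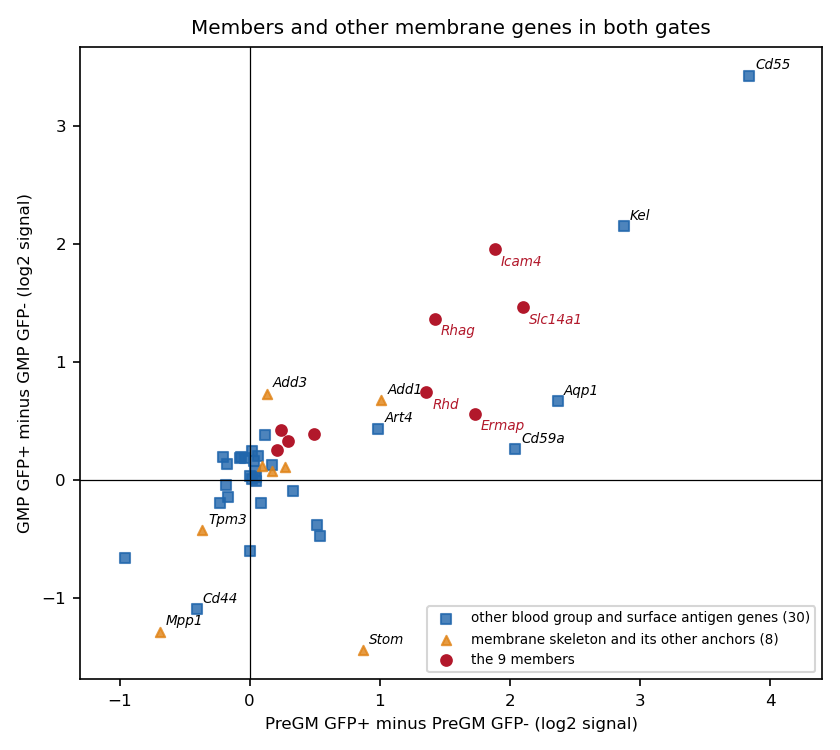
Reporter differences in log2 signal in the PreGM gate (horizontal) and the GMP gate (vertical) for the 9 members (circles), 30 other blood group and surface antigen genes (squares) and 8 genes of the membrane skeleton (triangles); names are given for members above 0.9 in PreGM and for called genes of the other lists. Cd55 at 3.84 and 3.43 and Kel at 2.88 and 2.15 lie beyond all members, and Stom lies at -1.45 in GMP.

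Markers of other cell types moved with these groups. A mean deviation, the average over a list of each gene's log2 signal minus the mean of its 8 group means, was computed per array. For the 6 erythroid genes below it was taken from the mean over all arrays, so those values are centred differently. For the 9 members it was 0.43 to 0.81 in PreMegE, 0.60 to 0.83 in PreGM GFP+, 0.16 to 0.42 in GMP GFP+, -0.47 to -0.16 in PreGM GFP- and -0.63 to -0.42 in GMP GFP-. For 8 erythroid genes it was 0.75 to 0.95 in PreMegE, 0.87 to 0.92 in PreGM GFP+, 0.49 to 0.74 in GMP GFP+, -0.68 to -0.24 in PreGM GFP- and -0.60 to -0.37 in GMP GFP-; 4 of the 8 rose in PreGM GFP+ and 5 in GMP GFP+. These 8 include Gata1, whose reporter defined the gates, and Car1, a carbonic anhydrase, which had differences of 5.54 in PreGM and 4.65 in GMP. Without both, an alternative chosen after seeing the data, 2 of 6 rose in PreGM GFP+ and 3 of 6 in GMP GFP+, and the mean deviation was 0.21 to 0.35 in PreMegE, 0.31 to 0.48 in PreGM GFP+, 0.10 to 0.41 in GMP GFP+, -0.33 to -0.0042 in PreGM GFP- and -0.19 to -0.12 in GMP GFP-. For 7 mast cell and basophil genes it was 0.62 to 1.21 in PreGM GFP+ and 3.54 to 4.13 in GMP GFP+, against -0.54 to -0.26 in PreGM GFP- and -0.26 to 0.17 in GMP GFP-, and it was -0.99 to -0.60 in PreMegE; 4 of the 7 rose in PreGM GFP+ and 6 in GMP GFP+. All 5 eosinophil genes rose in GMP GFP+ and 0 in PreGM GFP+. For 6 megakaryocyte genes it was 0.54 to 0.99 in PreMegE and 0.21 to 0.58 in HSC GFP-, and 0.30 to 0.64 in PreGM GFP+, against -0.43 to -0.18 in PreGM GFP-. The neutrophil and monocyte list was lower in both gates, and the lymphoid list was lower in PreGM GFP+ alone. Of 7 neutrophil and monocyte genes, 7 fell in PreGM GFP+ (median -1.99) and 5 in GMP GFP+ (median -2.05). Of 5 lymphoid genes, 3 fell in PreGM GFP+ (median -1.60) and 0 were called in GMP GFP+ by limma (median 0.21). At an unadjusted p under 0.05, 0 were higher and 1 was lower in GMP GFP+. Of 4 stem cell genes, 1 rose and 1 fell in PreGM GFP+ (median -0.29), and 0 were called in GMP GFP+ (median 0.04). The part of these cell types in the members' differences was not tested.

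**Figure D5:**
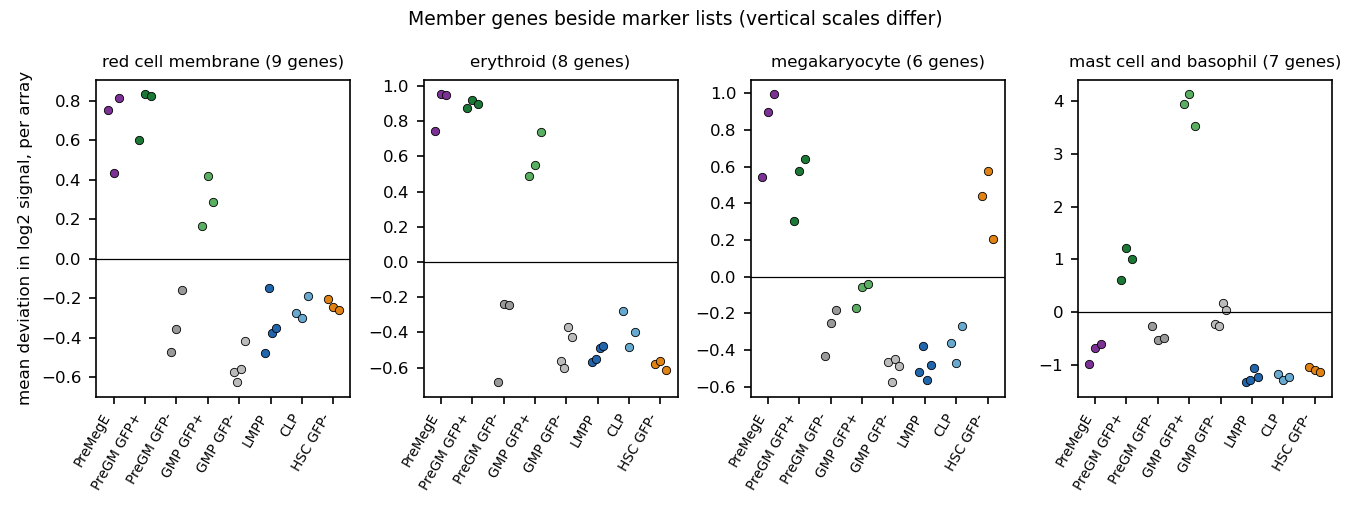
Mean deviation in log2 signal per array (points) for the 9 members and for erythroid, megakaryocyte and mast cell and basophil gene lists in the 8 sorted groups; vertical scales differ between panels. The members and the erythroid genes are above 0 in PreMegE, PreGM GFP+ and GMP GFP+ alone, while the mast cell and basophil list is highest in GMP GFP+, at 3.54 to 4.13, and below 0 in PreMegE.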

How the data were processed

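RNA of 26 sorted samples was measured on Affymetrix Mouse Gene 1.1 ST arrays. Values were deposited as log2 signals, normalized by the authors with RMA in oligo, per the submitters' processing notes, which give no versions; base 2 is taken from the range of the values and from RMA. No raw intensities, background flags or scan batches were used. Of 35556 probe sets, 21789 named 1 gene in the annotation used, that of the 1.0 ST array; 1621 naming several and 12146 naming none were left out. The probe set with the highest mean stood for each of 19938 genes. limma 3.58.1 in R 4.3.3 fitted 1 coefficient per group to all 26 arrays, with moderated tests adjusted by Benjamini-Hochberg over all genes and calls at an adjusted p under 0.05; the procedure was tested on simulated data. The 3 or 4 arrays per group limit the precision. Differences are first-named minus second-named group, and folds are given only where both means exceed the median of all values. The members and lists were chosen with earlier results of these data known. Named beyond the members are Gata1, Klf1, up to 4 called genes of each other list by size of difference, the 3 genes most like Icam4, Ermap and Slc14a1 (not given for the dim Rhd and Rhag), and sort antigen genes that were called; Art4, Sptb and the erythroid list without Gata1 and Car1 were added after their values were seen. Alternatives changed the scaling, the probe set choice, the treatment of dim genes, the array weights, the prior, the block on replicate number and the arrays used.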

Additional observations from a re-analysis of the deposited data

How the results depend on the processing

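Of 324 member differences recomputed for called members, 250 kept direction and call, 74 kept direction without the call, and 0 reversed. With all arrays, the 6 members called higher in PreGM GFP+ against PreGM GFP- became 3 with precision weights and 3 when the groups compared were fitted alone; the lowest and highest on leaving out 1 array were 5 and 6. The 7 called higher in GMP GFP+ against GMP GFP- became 3 with arrays centred, 3 with quantile normalization and 4 with those groups alone. They were 4 with dim genes left out, where Rhag, Epb42 and Add2 were not tested. With precision weights they were 8, as Ermap gained a call (0.67, adjusted p = 0.0312). On leaving out an array they were 3 to 7. The 5 called higher in PreMegE against PreGM GFP- became 2 with precision weights and 2 with those groups alone, and were 2 to 5 on leaving out an array. The 2 called lower in GMP GFP+ against PreGM GFP+ became 1 with those groups alone, and were 0 to 2 on leaving out an array. The 3 called higher in PreMegE against HSC GFP- were 2 with those groups alone, 4 with precision weights, and 3 to 4 on leaving out an array. The counts of 0 lower in the interaction and in PreMegE against PreGM GFP+ were 0 to 1 on leaving out an array. Fits of fewer arrays or of the compared groups alone have fewer degrees of freedom; for the other settings the cause was not tested. Over all genes, precision weights gave 93 higher and 120 lower calls in PreGM GFP+, against 181 and 227 without them, and 1249 and 1550 in GMP GFP+, against 642 and 807; fitted alone, the PreGM groups gave 89 and 128. The replicate block, with replicate number as a term, gave 5 members higher in the PreGM comparison, 6 in the GMP comparison and 4 in PreMegE against PreGM GFP-; the Ank1 call was lost in each, at 0.50 (adjusted p = 0.0607), 0.41 (adjusted p = 0.0642) and 0.45 (adjusted p = 0.0736). Deviations of arrays with the same number had a median r of 0.03 over 85 pairs (from -0.26 to 0.33, 18 over 0.1). Those with different numbers had -0.01 over 210 pairs (26 over 0.1). These values cannot show whether arrays of the same number shared a sort or batch. The main fit did not use the number as a pairing. Signal near background limits Rhag, Epb42 and Add2 in every group and Rhd in the groups at low Gata1 signal.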
